A study of Elaeis guineensis with 12 samples.

Results

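The 60 gene models described here were chosen by their read counts in these libraries, as the models that stood highest in normal staminodia of the oil palm, Elaeis guineensis. Read counts were summed per gene model, divided by the library total and scaled to CPM, counts per 1000000 assigned reads. Models with a mean of at least 5 CPM over the 3 normal staminodia libraries were scored, which left 12677 of 26087 models. The score was log2((lowest normal staminodia CPM + 1) / (highest CPM of the other 9 libraries + 1)), and the 60 highest scores were taken. A positive score therefore says that every normal staminodia library lay above every other library, and a score of 1 stands for a gap of 2-fold on that scale. Because normal staminodia were set against all 9 other libraries, their differences from mantled staminodia and from normal carpel were fixed by the choice and are given as a description.

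The 12 libraries came from florets at stage 3 of floral development, cut from frozen sections by laser capture, and all palms were labelled as clonal plants. Mantled staminodia (labelled male) and mantled carpel (labelled female) came from 3 mantled palms, 1 library of each organ per palm. Normal staminodia and normal carpel came from 2 normal palms: an inflorescence of normal palm 1 gave replicates 1 and 2, from separate parts of it, and normal palm 2 gave replicate 3. Mantled palm 1 carries a tree ID with another prefix than the remaining 4 palms, and what the prefix stands for is not given in the sources used here. Means below are over palms, with replicates 1 and 2 of normal palm 1 summed, and n is the number of palms.

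The female oil palm flower carries a carpel-forming gynoecium surrounded by staminodia, male organs that stop developing and remain sterile. In the mantled condition, a somaclonal variant that appears in palms raised by tissue culture, the staminodia develop into carpel-like organs called pseudocarpels, and the series is about the initials of these. The switch of organ identity is known from work on this species to involve the class B floral homeotic gene DEF1, a MADS-box transcription factor, and loss of DNA methylation at a Karma retrotransposon inside it. Class B genes set the identity of petals and male organs in flowering plants, and among the inner, reproductive organs carpels form where they are not active. The gene models in these files were not matched to gene names (0 of 100342 features were found among 185249 reference names), so models are given by ID with no role, and the ID starting maker-p5_sc00322 is written without its ending. For the same reason the organs were not checked against marker genes.

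The shallowest library, mantled carpel replicate 3, had 2121145 assigned reads and the deepest, mantled carpel replicate 2, had 8066978, around a median of 3232116. The share of all rows that was assigned to a feature was 25.3% to 32.2%. The 60 models held 0.387% to 0.444% of assigned reads in the 6 mantled libraries and 0.782% to 0.844% in normal staminodia, against 0.466% to 0.492% in normal carpel. Normal replicates 1 and 2 were separate libraries by their counts: the chi-square of their counts, divided by its degrees of freedom, was 7.83 for staminodia and 7.97 for carpel over models with 20 or more reads, and both were kept. These are bulk captures, so fewer cells of a type and less RNA per cell cannot be told apart.

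For a few members the name "specific to normal staminodia" described the values, and for most it did not. Of the 60 scores, 7 were 1 or more, 10 lay between 0.5 and 1, and 43 were under 0.5. A score under 0.5 is a gap below 1.41-fold between the lowest normal staminodia and the highest other library, with 1 CPM added to each. The median score was 0.28. Mantled staminodia held less than 10% of the normal staminodia mean in 11 members, 10% to less than 50% in 34 and 50% or more in 15, with a median of 36.0% and a highest value of 79.0%. Most of the 60 were thus lower and not lost in mantled staminodia, and they are called here the models that stood highest in normal staminodia.

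**Figure D1:**
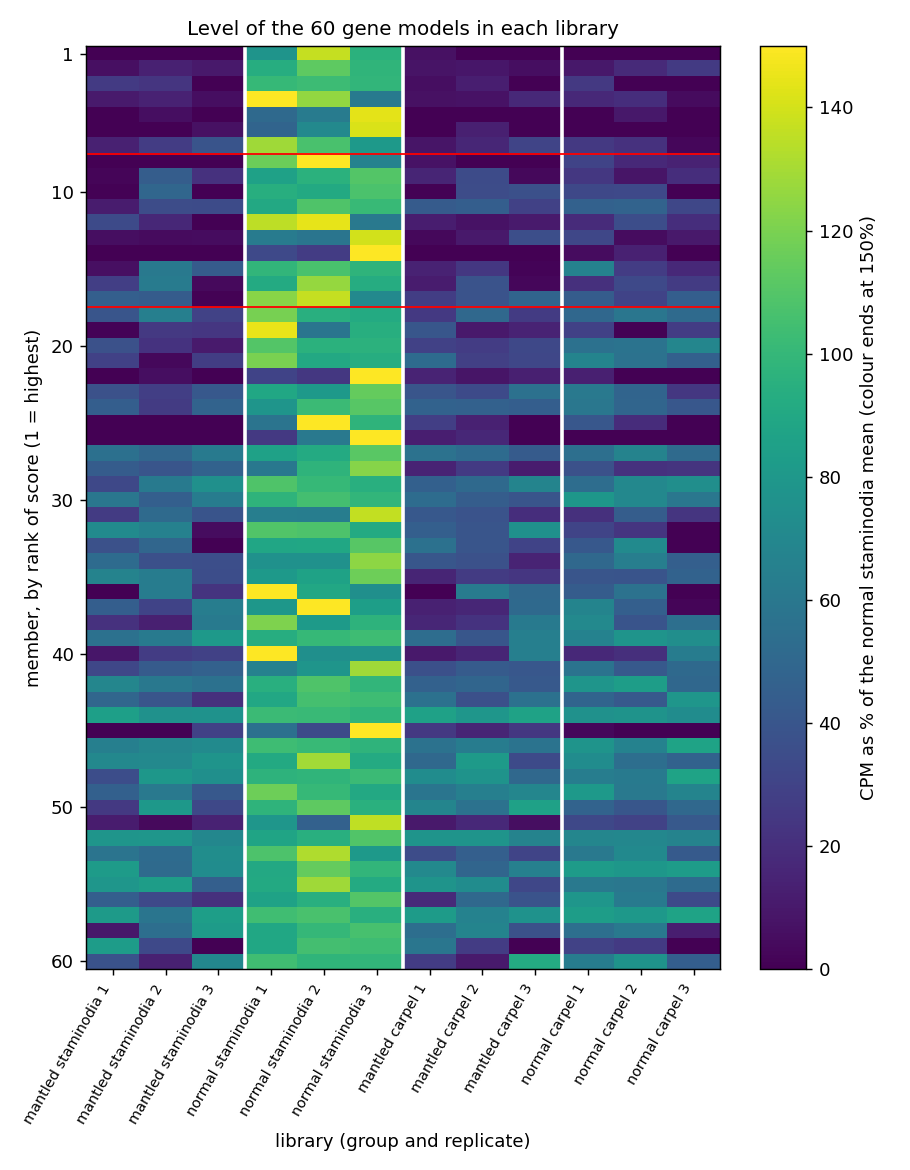
Level of each of the 60 members (rows, by rank of score) in each of the 12 libraries (columns, by group and replicate), as a percentage of the member's mean CPM in normal staminodia. Red lines close the 7 members with a score of 1 or more and the 10 with a score of 0.5 to 1; below them the other 9 columns grow brighter, and mantled staminodia hold up to 79.0% of the normal mean.

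The member with the highest score, p5_sc00085_cds_150, had 0 CPM in all 3 mantled staminodia libraries, against 7.51, 13.3 and 9.29 CPM in normal staminodia replicates 1, 2 and 3. It had 0.657, 0 and 0 CPM in mantled carpel and 0 CPM in all 3 normal carpel libraries. The 3 normal staminodia libraries held 31, 45 and 20 reads of it, and its remaining 3 reads were in mantled carpel of palm 1. With 3 counts over a group as the floor for a count of 0, its normal staminodia mean stood 30.8-fold above the floor of mantled staminodia. It stood 31.8-fold above the floor of normal carpel. Such floors cover counting error of the 0 only, since no molecular identifiers are named for these libraries. The spread of the normal staminodia mean is left out.

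The second, maker-p5_sc00322-snap-gene-9.52, had the smallest p among members in 3 of the 4 tests given below. It had 55.1, 125 and 94.2 CPM in mantled staminodia, against 848, 1025 and 892 CPM in normal staminodia. Mantled carpel had 72.7, 82.6 and 52.3 CPM, against 86.6, 165 and 235 CPM in normal carpel. All 3 normal staminodia libraries stood at 848 CPM or more and no other library passed 235 CPM. The means were 91.6 ± 35.2 CPM (SD, n = 3) in mantled staminodia and 910 ± 25.8 CPM (SD, n = 2) in normal staminodia.

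Member p5_sc00011_cds_586 had 3.01, 2.73 and 0 CPM in mantled staminodia, against 11.9, 12.1 and 11.6 CPM in normal staminodia. In mantled carpel it had 0.657, 1.49 and 0 CPM, against 2.93, 0 and 0 CPM in normal carpel. Normal staminodia were nearly level across both normal palms for this model, while mantled palm 3 had no read of it in either organ and normal palm 2 had none in carpel. Member p5_sc00051_cds_156 had 9.02, 12.1 and 4.77 CPM in mantled staminodia, against 124, 104 and 50.6 CPM in normal staminodia. In mantled carpel it had 5.69, 6.07 and 14.1 CPM, against 14.3, 16.3 and 3.83 CPM in normal carpel. Here normal palm 2 was at 0.439 times the level of normal palm 1 in staminodia, and its lowest normal staminodia library was still 2.99-fold above the highest other library with 1 CPM added to each.

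The fifth and sixth, p5_sc00076_cds_154 and p5_sc00078_cds_76, rested on few reads. Member p5_sc00076_cds_154 had 0, 0.391 and 0 CPM in mantled staminodia, against 3.64, 4.42 and 10.2 CPM in normal staminodia, and its only other reads were 3 in normal carpel replicate 2. Member p5_sc00078_cds_76 had 0, 0 and 0.502 CPM in mantled staminodia, against 3.64, 5.31 and 10.7 CPM in normal staminodia. It had 0, 0.992 and 0 CPM in mantled carpel and 0 CPM in all 3 normal carpel libraries. Both models were lower in normal palm 1, with 15 to 18 reads a library, than in normal palm 2, with 22 and 23 reads. Member p5_sc00031_cds_406, the last with a score of at least 1 (1.01), had 4.68, 8.98 and 13.1 CPM in mantled staminodia, against 43.4, 36.0 and 27.4 CPM in normal staminodia.

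**Figure D2:**
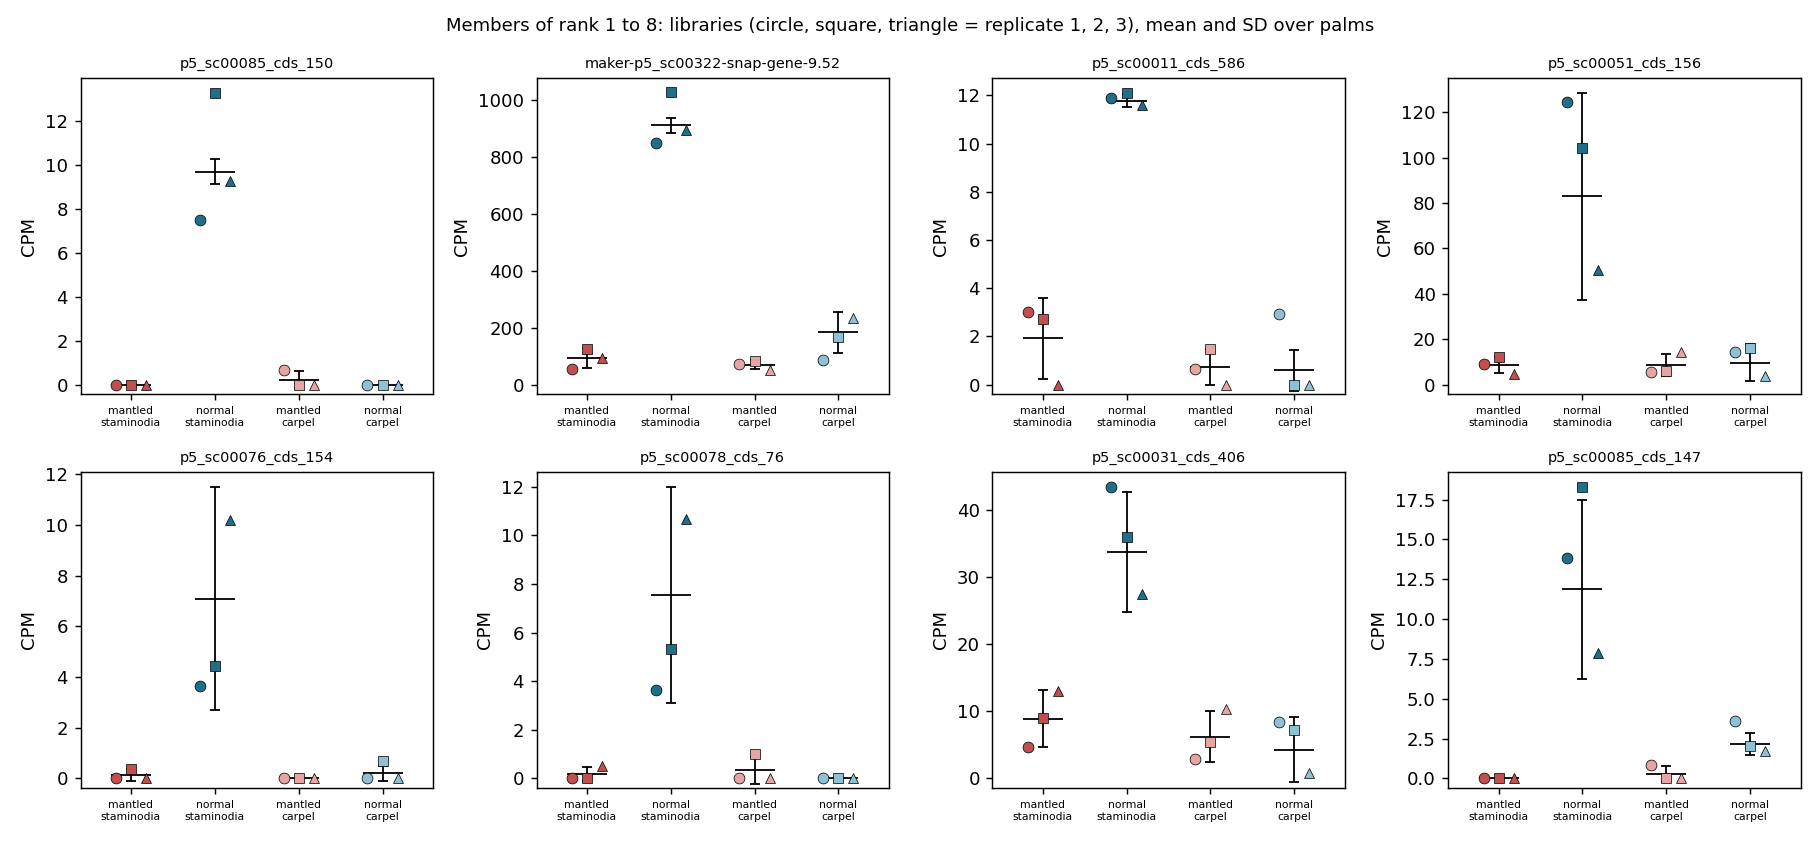
CPM of the 8 members with the highest scores in each library, by group (circle, square and triangle for replicates 1, 2 and 3), with the mean and SD over palms (n = 3 mantled, n = 2 normal; replicates 1 and 2 of normal palm 1 are summed). In each panel all 3 normal staminodia points lie above the other 9 points; for p5_sc00085_cds_150 mantled staminodia are at 0 CPM, against 7.51 to 13.3 CPM in normal staminodia.

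With all 12 libraries, the 11 highest scores were above any found with another group in front, and 7 of them were 1 or more. The lead in the number of models at a score of 1 or more turned round without normal palm 1 and without mantled staminodia replicate 2, as given below. The same score was computed with each labelled group in turn. Each group has 3 libraries, from 3 palms in both mantled groups and from 2 palms in both normal groups. The lowest value is thus taken over fewer palms in the normal groups, and what this adds to their scores was not tested. With mantled staminodia in front 0 of 12994 models reached a score of 1, with a highest score of 0.80. With normal staminodia in front 7 of 12677 reached it and the highest was 2.36. The highest scores were 0.73 with mantled carpel in front (13196 models) and 0.63 with normal carpel in front (12849 models), with 0 models at 1 or more in both. In the reverse direction, normal staminodia lay below all 9 other libraries in 172 of 13153 models, 2 of them by a log2 gap of 1 or more, with a widest gap of 1.11.

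The number of models with a positive score was not particular to normal staminodia. It was 101, or 0.797% of models scored, with normal staminodia in front, and 145 with mantled staminodia, 90 with mantled carpel and 91 with normal carpel in front. All 60 members have a positive score by construction, beside that 0.797%. At rank 60 the scores were 0.14 for mantled staminodia, 0.0987 for normal staminodia, 0.052 for mantled carpel and 0.0723 for normal carpel. The lists of all 4 groups thus ran out at similar small gaps. With all 12 libraries normal staminodia, from 2 palms, stood apart over the first ranks.

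How many models reached a score of 1 depended on how the normal palms entered. The count with normal staminodia in front was 12 without replicate 1, 12 without replicate 2 and 19 without replicate 3 of normal staminodia. Among settings that left out 1 library, the highest count with another group in front was 15, without mantled staminodia replicate 2, where normal staminodia in front gave 10. A group with fewer libraries has fewer from which to take the lowest value, so these counts are larger by construction. Without normal palm 1, which leaves 1 normal staminodia library, the order turned round: 385 models reached a score of 1 with normal staminodia in front, and up to 478 with another group in front, while 3 of the 60 members were chosen again. Without normal palm 2 the counts were 19 with normal staminodia and up to 3 with another group in front. With libraries of a palm summed, which sets 2 normal staminodia values against 8 others, 11 models reached a score of 1 with normal staminodia in front and 1 at most with another group in front. All 7 of the named high scorers kept a score of 1 or more there. Without normal staminodia replicate 3, p5_sc00076_cds_154 and p5_sc00078_cds_76 were not scored, as their means fell under 5 CPM. Leaving it out did not change their lowest library, replicate 1. The remaining 5 of the 7 kept a score of 1 or more. Without normal palm 1 all 7 did, as did 385 models in all, but only 1 of the 7 was among the 60 highest. With 5 CPM added in place of 1 in the score, 4 of the 7 kept a score of 1 or more.

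**Figure D3:**
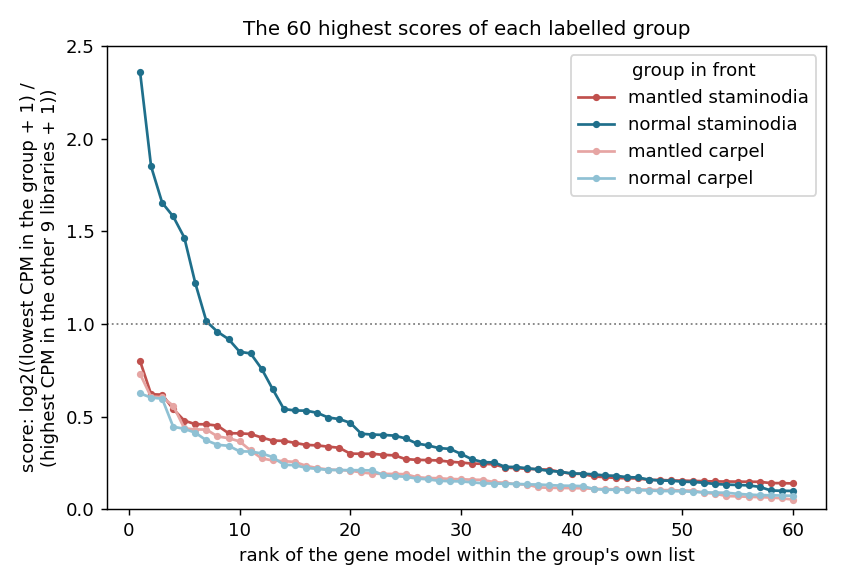
The 60 highest scores with each of the 4 groups in front, against rank within that group's own list. The line of normal staminodia starts at 2.36 and falls below 1 after 7 models, while the other 3 lines start at 0.63 to 0.80; all 4 end between 0.052 and 0.14 at rank 60.

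At the lower end of the list the members hardly differed from models just outside it. The last 2 members were p5_sc10645_cds_1 and p5_sc00001_cds_239, both with a score of 0.099, and the next 2 models were maker-p5_sc00023-augustus-gene-48.55-mRNA-1:cds with 0.09 and p5_sc00019_cds_538 with 0.088. Model p5_sc10645_cds_1 had 25.7, 10.2 and 0 CPM in mantled staminodia, against 27.6, 32.4 and 32.0 CPM in normal staminodia. Mantled palm 1 was close to the normal level for it and mantled palm 3 had no read. Model p5_sc00001_cds_239 had 54.8, 19.9 and 100 CPM in mantled staminodia, against 151, 142 and 143 CPM in normal staminodia, and its highest other library was mantled carpel replicate 3 with 133 CPM. Outside the limit, p5_sc00019_cds_538 had 282, 239 and 210 CPM in mantled staminodia, against 300, 311 and 388 CPM in normal staminodia. The normal libraries again lay above the mantled ones without overlap. Model maker-p5_sc00023-augustus-gene-48.55-mRNA-1:cds had 51.1, 61.3 and 48.0 CPM in mantled staminodia, against 84.6, 87.3 and 109 CPM in normal staminodia, and 79.4 CPM in its highest other library, normal carpel replicate 1.

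The members spanned a wide range of read numbers. Means in normal staminodia were 6.28 to 1180 CPM with a median of 34.0 CPM. CPM is not divided by model length, so it orders models by reads and not by transcripts. Of the 16 members with 100 CPM or more in normal staminodia, 11 kept 50% or more of that level in mantled staminodia. Of the 34 with 10 to 100 CPM 3 did, and of the 10 with less than 10 CPM 1 did. Libraries scatter more by counting for models with few reads, so these need a wider mean gap for the same score. The pattern by level may thus follow from the choice, which was not tested, and shares by level over all models are not given. The model with the most reads, p5_sc00023_cds_149, had 1002, 893 and 900 CPM in mantled staminodia, against 1210, 1197 and 1156 CPM in normal staminodia. Its mantled mean of 932 ± 60.6 CPM (SD, n = 3) was 79.0% of the normal mean of 1180 ± 33.7 CPM (SD, n = 2), the closest of all 60. In contrast, maker-p5_sc00001-augustus-gene-38.61-mRNA-1:cds had 13, 4.69 and 16.3 CPM in mantled staminodia, against 90.4, 53.4 and 155 CPM in normal staminodia. Its score was 0.15 because normal carpel reached 48.1 CPM, so a low score did not always mean a small difference between mantled and normal staminodia. Both models were picked after their values were seen, as were p5_sc00031_cds_406, the members named for a count of 0 and those named below as examples of libraries that did not overlap.

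In 5 members mantled staminodia had no read in any library. They were p5_sc00085_cds_150 and p5_sc00085_cds_147, maker-p5_sc00023-augustus-gene-11.53-mRNA-1:cds, augustus_masked-p5_sc03108-processed-gene-0.3-mRNA-1:cds and augustus_masked-p5_sc00008-processed-gene-26.8-mRNA-1:cds. Set against the same floor of 3 counts over the group (0.315 CPM), their normal staminodia means over palms were 30.8-, 37.7-, 20.9-, 22.7- and 27.8-fold higher, in that order. Their normal staminodia libraries together held 96, 136, 39, 70 and 57 reads. Depth therefore sets how firmly such a loss can be stated: maker-p5_sc00023-augustus-gene-11.53-mRNA-1:cds had 9, 6 and 24 reads in the 3 normal staminodia libraries. Over the whole list, the number of members with no read was 7 to 12 in a mantled staminodia library, 0 in a normal staminodia library, 4 to 9 in a mantled carpel library and 4 to 14 in a normal carpel library. Normal carpel replicate 3, the library with 14, was among the shallowest with 2349579 assigned reads. A positive score requires reads in every normal staminodia library, and counts of 0 elsewhere raise it. The numbers of members without a read thus follow in part from the choice, and no share over all models is given beside them.

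Between mantled and normal staminodia the log2 difference of mean CPM + 1 had a median of -1.38 over the 60 members (range -3.76 to -0.34), beside 0.05 over all 12677 models scored. The pseudocount of 1 understates the change of models with few reads. In 45 members the mantled mean was at or below 50% of the normal mean, as it was in 9.31% of all models scored. In edgeR's quasi-likelihood test on palm sums, 1 of the 58 members that passed the filter on low counts was called lower at an adjusted p under 0.05, beside 0.0133% of all models tested (2 of 15050). That member was maker-p5_sc00322-snap-gene-9.52, with a log2 fold change of -3.39 (SE 0.329) and an adjusted p of 0.000971 in edgeR, lower in 3 of 3 mantled palms. Without mantled replicate 1 no member was called. The choice of members used this contrast, so these counts say nothing of their own about the list.

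The same holds for staminodia and carpel of normal palms. The members' log2 difference there had a median of 1.26 (range 0.25 to 3.42), beside -0.003 over all models scored. Normal carpel held a median of 39.2% of the normal staminodia level, under 10% in 8 members, 10% to less than 50% in 29 and 50% or more in 23. With palm as a block, edgeR called 2 of 58 members higher in staminodia, beside 0.125% of models tested (21 of 16800). They were maker-p5_sc00322-snap-gene-9.52, with a log2 difference of 2.44 (SE 0.254) and an adjusted p of 1.36e-05 in edgeR, and p5_sc00051_cds_156, with 3.32 (SE 0.676) and an adjusted p of 0.0131 in edgeR. Both stood higher in staminodia in 2 of 2 normal palms. Without normal replicate 3, which leaves 1 normal palm with its spread taken from the mantled palms, the call of p5_sc00051_cds_156 was lost, and it was lost too without normal replicates 1 and 2 together, which leaves the other normal palm. With no block 1 member was called, maker-p5_sc00322-snap-gene-9.52.

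The score divides by the highest of the 9 other libraries, so which group came closest to normal staminodia is given as a description. The highest of the 9 other libraries was a mantled staminodia library in 18 members (30%, beside 41.1% of all models scored), a mantled carpel library in 13 (21.7%, beside 26.4%) and a normal carpel library in 29 (48.3%, beside 32.4%). By group means, mantled staminodia were the lowest of the 3 other groups in 26 members (43.3%, beside 33.1%), mantled carpel in 19 (31.7%, beside 23.1%) and normal carpel in 15 (25%, beside 43.7%). These shares were not tested. Normal carpel comes from the same 2 palms and the same inflorescences as normal staminodia, so palm and phenotype cannot be told apart here.

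The carpel comparison asked whether the members also differ between mantled and normal palms in an organ that the choice did not put in front. It is not independent of the choice: all 6 carpel libraries are among the 9 that the score holds down, and normal carpel comes from the palms whose staminodia were chosen to be high, where deviations of the organs correlated at 0.167. How far this moves the values below was not tested. The member with the smallest p was maker-p5_sc00322-snap-gene-9.52, with 69.2 ± 15.4 CPM (SD, n = 3) in mantled carpel and 184 ± 71.8 CPM (SD, n = 2) in normal carpel. All 3 mantled carpel libraries lay below the 3 normal ones, and the lowest normal library, replicate 1 with 86.6 CPM, was close to the highest mantled one with 82.6 CPM. Its log2 fold change was -1.42 (SE 0.326), with a p of 0.0011 and an adjusted p of 0.996 in edgeR, so it did not pass. Over the alternatives its adjusted p ran from 0.0152, without a filter on low counts, to 1.0. Of 16191 models tested in carpel edgeR called 0 (0.0%), and 0 of the 51 members tested, while 607 models had an unadjusted p under 0.05, 2 of them members, both with lower values in mantled carpel. DESeq2 called 4 models and limma voom 7, with 0 members among them.

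Over all 60 members the log2 difference of mantled over normal carpel had a median of -0.15 (range -1.63 to 1.53), beside 0.08 over all models scored. It was below 0 in 37 members (61.7%), beside 43.9% of all models. The medians of the 3 mantled palms, each set against mean normal carpel, were -0.30, -0.10 and -0.30. Every mantled carpel library lay below every normal carpel library in 12 members, beside 5.4% of all models scored, and above it in 4 members, beside 8.34%. The 12 included p5_sc00085_cds_147, with 0.876, 0 and 0 CPM in mantled carpel and 3.58, 2.03 and 1.70 CPM in normal carpel, and maker-p5_sc00001-augustus-gene-38.61-mRNA-1:cds, with 11.8, 20 and 6.60 CPM in mantled carpel and 37.4, 33.9 and 48.1 CPM in normal carpel. The 4 included p5_sc00023_cds_149, with 1013, 931 and 1020 CPM in mantled carpel and 894, 910 and 861 CPM in normal carpel. The median was -0.25 without normal replicate 2 and -0.30 without normal replicate 3, so its size depended on which normal libraries were used.

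Within mantled palms, staminodia (the pseudocarpel initials) and carpel of the same palm were compared next. The log2 difference of staminodia over carpel had a median of -0.03 (range -1.34 to 1.30) and was below 0 in 32 of 60 members, beside a median of -0.02 and 52.4% of all models scored. The members' median was 0.02 without mantled replicate 2 or 3. Taken within each palm, the medians were 0.0, 0.09 and 0.11 in mantled palms 1, 2 and 3, so the sign was not fixed. Staminodia lay above carpel in all 3 mantled palms in 14 members, beside 12.9% of all models, and below it in all 3 in 5 members, beside 17.9%. With palm as a block, edgeR called 25 of 16800 models (0.149%), 14 higher and 11 lower in staminodia, and 0 of the 58 members tested. The fit and its filter on low counts included normal staminodia, so members could pass with hardly a read in mantled organs. One was p5_sc00085_cds_150, with 0 reads in mantled staminodia and 3 in mantled carpel. For such members the comparison could hardly give a call, and nothing is drawn from the 0. Of all models 833 had an unadjusted p under 0.05, with 4 members among them. DESeq2 called 88 models, 1 of them a member, and limma voom 54, with 0 members.

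The member with the smallest p in that comparison was p5_sc00042_cds_251. It had 159, 144 and 203 CPM in mantled staminodia, against 96.3, 125 and 84.4 CPM in carpel of the same 3 palms. Staminodia were higher in 3 of 3 mantled palms, by a log2 difference of 0.76 (SE 0.202) with a p of 0.000511 and an adjusted p of 0.141 in edgeR. It passed in edgeR without a filter on low counts (0.78, adjusted p = 0.0361), without mantled replicate 2 (1.04, adjusted p = 0.0434) and without normal replicate 3 (0.77, adjusted p = 0.0129), and in DESeq2 (0.78, adjusted p = 0.0418). Its adjusted p over all alternatives ran from 0.0129 to 1.0. In normal palms it had 298, 364 and 223 CPM in staminodia, against 168, 195 and 117 CPM in carpel. That difference of 0.95 (SE 0.244) had an adjusted p of 0.121 in edgeR and shares its direction with the choice of members. Whether the organ difference of this model differed between mantled and normal palms was not tested.

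**Figure D4:**
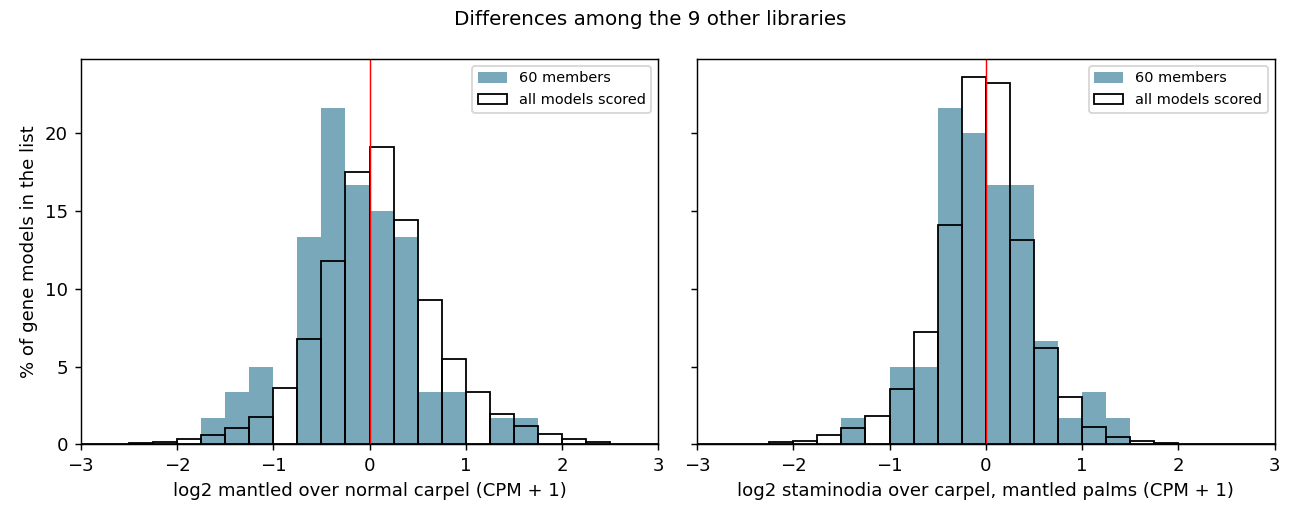
Share of gene models by log2 difference of mean CPM + 1, in steps of 0.25, for the 60 members (filled) and all 12677 models scored (outline): mantled over normal carpel on the left, staminodia over carpel of mantled palms on the right. On the left the members' median is -0.15, beside 0.08 for all models; on the right the medians are -0.03 and -0.02.

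Mantled staminodia and normal carpel, the organ they come to resemble in form, were also compared. The log2 difference of mantled staminodia over normal carpel had a median of -0.14 (range -1.79 to 1.34) over the members and was below 0 in 37 of them (61.7%), beside a median of 0.05 and 46.5% of all models scored. Every mantled staminodia library lay below every normal carpel library in 4 members, beside 6.9% of all models, and above it in 1 member, beside 7.35%. As shares of the normal staminodia mean, the medians over members were 36.0% in mantled staminodia, 33.7% in mantled carpel and 39.2% in normal carpel. One of the 4 was p5_sc00085_cds_147, with 0 CPM in all 3 mantled staminodia libraries. The 1 member above was p5_sc00148_cds_52, with 10.7, 9.77 and 11.6 CPM in mantled staminodia and 9.11, 5.20 and 5.53 CPM in normal carpel.

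The 2 normal palms did not always give the same level. The score takes the lowest of the 3 normal staminodia libraries, so members with normal libraries close to each other were favoured by the choice. The counts below are a description, and those without a share over all models have nothing to be set against. Normal staminodia replicate 3, from normal palm 2, was above both libraries of normal palm 1 in 24 members, below both in 17 and between them in 19. Replicates 1 and 2 were within 1.5-fold of each other in 50 members, and all 3 libraries were within 1.5-fold in 36. Normal palm 2 was at 2 times normal palm 1 or more in 9 members, beside 13.4% of all models scored, and at 50% or less in 3 members, beside 16.3%. The ratio ran from 0.437 to 6.28. In 4 members the 3 normal staminodia libraries spread over 3-fold, up to 7.09-fold, and a member's lowest library held as few as 6 reads. Read numbers differed widely beside this: 10 members had fewer than 20 reads in a normal staminodia library and 25 had 100 or more in each.

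Going by the form of the IDs, a gene model can be split into numbered parts, and the parts allow a look within a member. The reads of the parts add up to the values by which members were chosen, so parts that are highest in normal staminodia follow in large part from the choice, and the counts below are a description. There were 26 members with 1 part (43.3%, beside 46.1% of models scored) and 34 with more, up to 16, and the median was 2 in both lists. The 34 models had 181 parts, of which 121 held 20 or more reads in all and 81 of these were highest in normal staminodia. In 19 of the 34 every such part was highest there. Member p5_sc00051_cds_156 had 7 parts, each highest in normal staminodia, and none of these parts went the other way. In p5_sc00085_cds_150 all 96 normal staminodia reads lay on part 4 and the 3 mantled carpel reads on part 1, and in p5_sc00085_cds_147 part 2 held 131 of 136 normal staminodia reads. For these models the difference was thus read from 1 part.

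The members lay on 48 scaffolds, of 1241 with a scored model. There were 7 scaffolds with 2 or more members, holding 19 in all. Scaffold p5_sc00001 held 6 members among its 478 scored models, the most of any. By the form of the ID, 43 members (71.7%) were numbered cds models, beside 62.0% of models scored, and 7 (11.7%) were maker-augustus models, beside 21.1%. A further 6 (10%) were maker-snap models, beside 12.8%, and 4 (6.67%) augustus_masked models, beside 3.20%. Of 7 member pairs with numbered models on the same scaffold, 1 lay within 10 model numbers.

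That pair was p5_sc00085_cds_147 and p5_sc00085_cds_150, with 0 numbered models listed between them. The first had 0 CPM in all 3 mantled staminodia libraries, against 13.8, 18.3 and 7.89 CPM in normal staminodia. Both members of the pair therefore had no read in mantled staminodia and both had a few reads in mantled carpel of palm 1, 4 and 3. They differed in normal carpel, where p5_sc00085_cds_147 had 24 reads and p5_sc00085_cds_150 had 0. The nearest numbered models on either side, 140 and 159, were no members: 140 had 3 reads in normal staminodia and 0 elsewhere, and 159 had 7.80 ± 7.47 CPM (SD, n = 3) in mantled staminodia and 5.72 ± 5.46 CPM (SD, n = 2) in normal staminodia. Model 129 had 45.7 ± 16.6 CPM (SD, n = 3) in mantled staminodia and 29.9 ± 9.57 CPM (SD, n = 2) in normal staminodia, and none of the 4 numbered models listed on either side of the pair was a member. Whether 147 and 150 are separate genes or pieces of 1 gene cannot be told from the IDs.

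**Figure D5:**
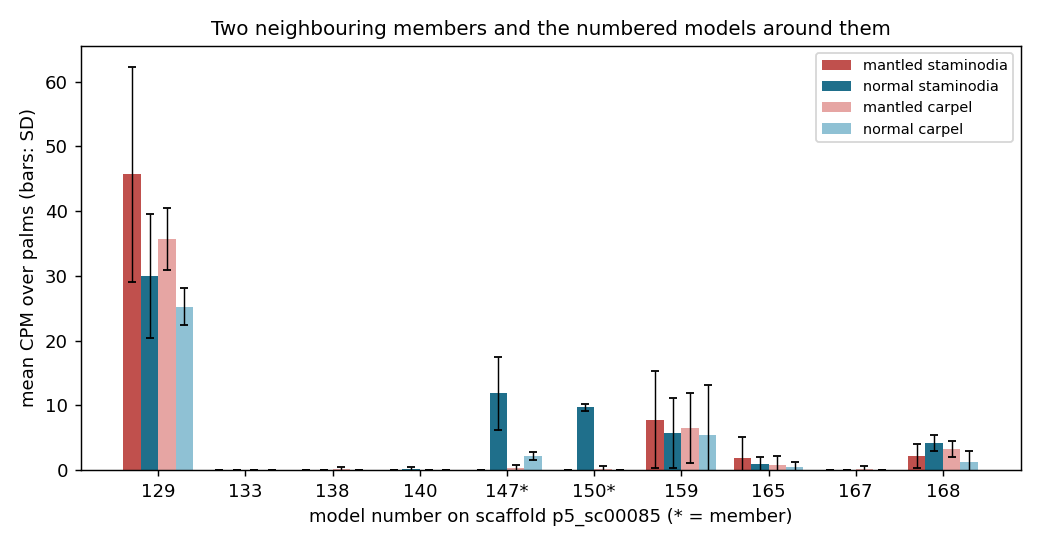
Mean CPM over palms (bars, with SD; n = 3 mantled, n = 2 normal) in the 4 groups for p5_sc00085_cds_147 and p5_sc00085_cds_150, marked with an asterisk, and the 4 numbered models listed on each side. The pair has bars of 11.9 and 9.70 CPM in normal staminodia and none in mantled staminodia, while models 129 and 159 show no such gap.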

How the data were processed

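Libraries were made, per the labels' protocols, from laser-captured cryosections with DNase treatment, ribosomal RNA depletion and the SMARTer Stranded kit, and read as paired ends on HiSeq or MiSeq instruments (which library on which is not stated). The submitters' processing notes name HTSeq 0.6.1p1, TopHat2 2.0.13, CASAVA 1.8.2, cutadapt and Trim Galore. No source used here gives the genome build, annotation or strand setting; overlapping and antisense models may share reads, and reads aligned to several places were not assigned, which undercounts recent copies. The authors deposited raw read counts for 100342 features per library. The 5 summary rows (no feature 46.9% to 50.5%, ambiguous 10.9% to 14.3%, multiply aligned 5.78% to 16.7% of rows) were left out.

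Features whose IDs end in a part number were summed to models, a reading of the IDs that no annotation was at hand to check. CPM used the library total. The members, the lists and the rule for named models (the 6 highest scores, the 2 lowest members and the next 2 outside, the member of smallest p in each comparison without normal staminodia, and members neighbouring by model number) were chosen with earlier results of these data known. Tests used edgeR 4.0.16 in R 4.3.3 on palm sums (filterByExpr with a minimum count of 10, TMM, glmQLFit and glmQLFTest, two-sided) with Benjamini-Hochberg adjustment over all models tested and a threshold of 0.05. Each SE is the log2 value divided by the root of the F statistic. Organ comparisons had palm as a block because each tree ID stands on libraries of both organs. Both came from a single fit of all palm sums, so the filter on low counts saw normal staminodia too. Deviations of the 2 organs of a palm from their group means correlated at 0.303, 0.491 and 0.309 in the 3 mantled palms and 0.167 in normal palms. DESeq2 1.42.0 and limma 3.58.1 (voom) were alternatives. The steps were also run on simulated data, with counting error only for the score and the same added spread in all models for the fits. That spread was simpler than in these libraries, and no result here rests on those runs. With 2 or 3 palms a group, p-values lean on spread shared across models.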

Additional observations from a re-analysis of the deposited data

How the results depend on the processing

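Of the 60 members, 38 were chosen again with palm sums, 36 with single features, 3 without normal palm 1, 20 without normal palm 2 and 20 to 54 with 1 library left out. Pseudocounts of 0.5 and 5, TMM scaling and means of 2 or 10 CPM kept within 1.5 times of 60. The 7 models at a score of 1 or more became 4 with a pseudocount of 5, 11 with palm sums, 385 without normal palm 1, 19 without normal palm 2 and 7 to 19 with 1 library left out. The most in any other group, 0, became 1 with a mean of 2 CPM, 1 with palm sums, 478 and 3 without normal palm 1 and 2, and 0 to 15 with 1 library left out. The median carpel difference was -0.297 to -0.122 with 1 replicate left out.

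Calls in carpel (0) were 24 without a filter, with 1 member, 4 in DESeq2, 7 in voom and 0 to 5 with 1 replicate left out. Organ calls in mantled palms (25) were 74 without a filter and 88 in DESeq2, each with 1 member, 54 in voom, 9 with each library as a replicate, 62 without normal replicates 1 and 2 together, and 0 to 127, with 0 to 1 members, with 1 replicate left out. Staminodia calls between palms (3, of which 1 member) were 73 and 4 without a filter, 48 and 5 in DESeq2, 35 and 3 in voom, 17 and 4 with each library as a replicate, and 0 to 32, with 0 to 2 members, with 1 replicate left out. Without normal replicates 1 and 2 together 2 members were called. Organ calls in normal palms (25, of which 2 members) were 72 and 4 without a filter, 73 and 4 in DESeq2, 111 and 10 in voom, 68 and 6 with each library as a replicate, 897 and 5 without normal replicates 1 and 2 together, and 5 to 72, with 1 to 3 members, with 1 replicate left out.

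With no replicate block, paired organs of a palm being treated as separate, 0 models were called in mantled palms and 1, a member, in normal palms. Leaving out normal replicate 3, or replicates 1 and 2 together, leaves 1 normal palm, with its spread taken from the other palms. The block changed no call of a member in mantled palms. Depth limits the 10 members with fewer than 20 reads in a normal staminodia library. The cause of the moved counts was not tested.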
